A study of Mus musculus with 134 samples.

Results

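The Wnt ligands and their receptors were followed through mouse embryonic stem cells (mESCs) profiled by SET-seq, a method that reads RNA and a histone mark from the same cells. The 31 genes were chosen by family name and not by their values: 19 Wnt ligands, the 10 Frizzled (Fzd) receptors and the co-receptors Lrp5 and Lrp6. All 31 were among the 25209 genes of the bulk expression tables, which held 54 libraries in 27 conditions of 2 libraries each. The 2 single-cell matrices had rows for 24 (H3K27me3) and 26 (H3K4me3) of them. The cells were labelled E14 of strain 129/Ola, grown in serum with LIF, without added agent in the bulk experiments.

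The bulk libraries fell into 8 sets. In vitro sets were made from purified total RNA primed with oligo-dT and cut with the transposase Tn5: a Tn5 series (25, 50 and 100 ng/µl), an RNA amount series (300 ng, 3 ng and 30 pg) and a temperature series (16 °C and 37 °C for 5, 10, 15 and 30 min). SET-seq sets used the cytoplasmic RNA left after nuclei had been captured on beads: without antibody (10, 100, 1000 and 10000 cells), with an antibody to H3K4me3 and with an antibody to H3K27me3 (100, 1000 and 10000 cells each). Ligation-based RNA-seq of poly-A RNA made up 2 libraries. Aebp2 knockout (KO) cells, made with Cas9 and a different guide for each of the clones KO1 and KO2, gave 4 libraries of cytoplasmic RNA, 2 of each clone, so that each guide is represented by 1 clone. The H3K27me3 SET-seq libraries served as their wild type (WT). The single cells were picked near to (proximal) or away from (distal) beads that carried Wnt3a after about 12 h.

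Wnt proteins are secreted lipid-modified ligands. They bind Frizzled receptors, which span the membrane several times, and in the canonical pathway the complex also takes in Lrp5 or Lrp6, whose tails recruit Axin, so that β-catenin is no longer degraded and acts with TCF/LEF factors in the nucleus. Other ligands, Wnt5a, Wnt5b and Wnt11 among them, are known mainly for signalling independent of β-catenin, which shapes cell polarity and movement. In mESCs canonical Wnt signalling favours self-renewal. Aebp2 is an accessory subunit of Polycomb repressive complex 2, which places H3K27me3, a mark found on many silent developmental genes.

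Depth and identity of the libraries set limits on all values. Total counts ranged from 235040 to 21520982 per library, and those of KO from 1964974 to 2351822, of which the ribosomal RNA gene Rn45s took 48.8 to 56.7%. It took 22.0 to 29.7% in the WT libraries, and it was removed before scaling. All 8 markers of embryonic stem cells (Pou5f1 and Nanog among them) were detected in every set. Aebp2 was at 15.0 and 15.7 CPM (counts scaled to a common library total) in KO1, at 30.2 and 49.7 in KO2 and between 34.7 and 76.0 in WT, so that KO2 overlapped WT. Its log2 fold change was -0.88 (SE 0.31, edgeR adjusted p = 0.0252). Hprt, a purine salvage gene that the E14TG2a line is known to lack, divided the libraries in another way. It was at 0 to 1.29 CPM in the 28 in vitro libraries and at 0 to 2.14 in KO, but at 66.2 to 485 in SET-seq of 100 to 10000 WT cells and at 181 and 184 in the ligation libraries. KO and WT thus differed in Hprt as well as in Aebp2, and genotype and cell stock cannot be told apart between them.

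Levels are given as RPKM, the CPM without Rn45s divided by the exon length in kilobases, so that genes of unequal length can be compared. A gene was called expressed in a set when every library of at least 1000 cells or 3 ng RNA reached an RPKM of 1. By this rule 14 of the 31 genes were expressed in at least 1 of the 8 sets, among them 4 of the 19 ligands, 8 of the 10 Fzd genes and both Lrp genes. Only Fzd5, Fzd10 and Lrp6 were expressed in all 8. The sets held between 6 expressed members (SET-seq without antibody) and 11 (ligation). Without its shallow library, replicate 2 of 1000 cells, SET-seq without antibody held 10.

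**Figure D1:**
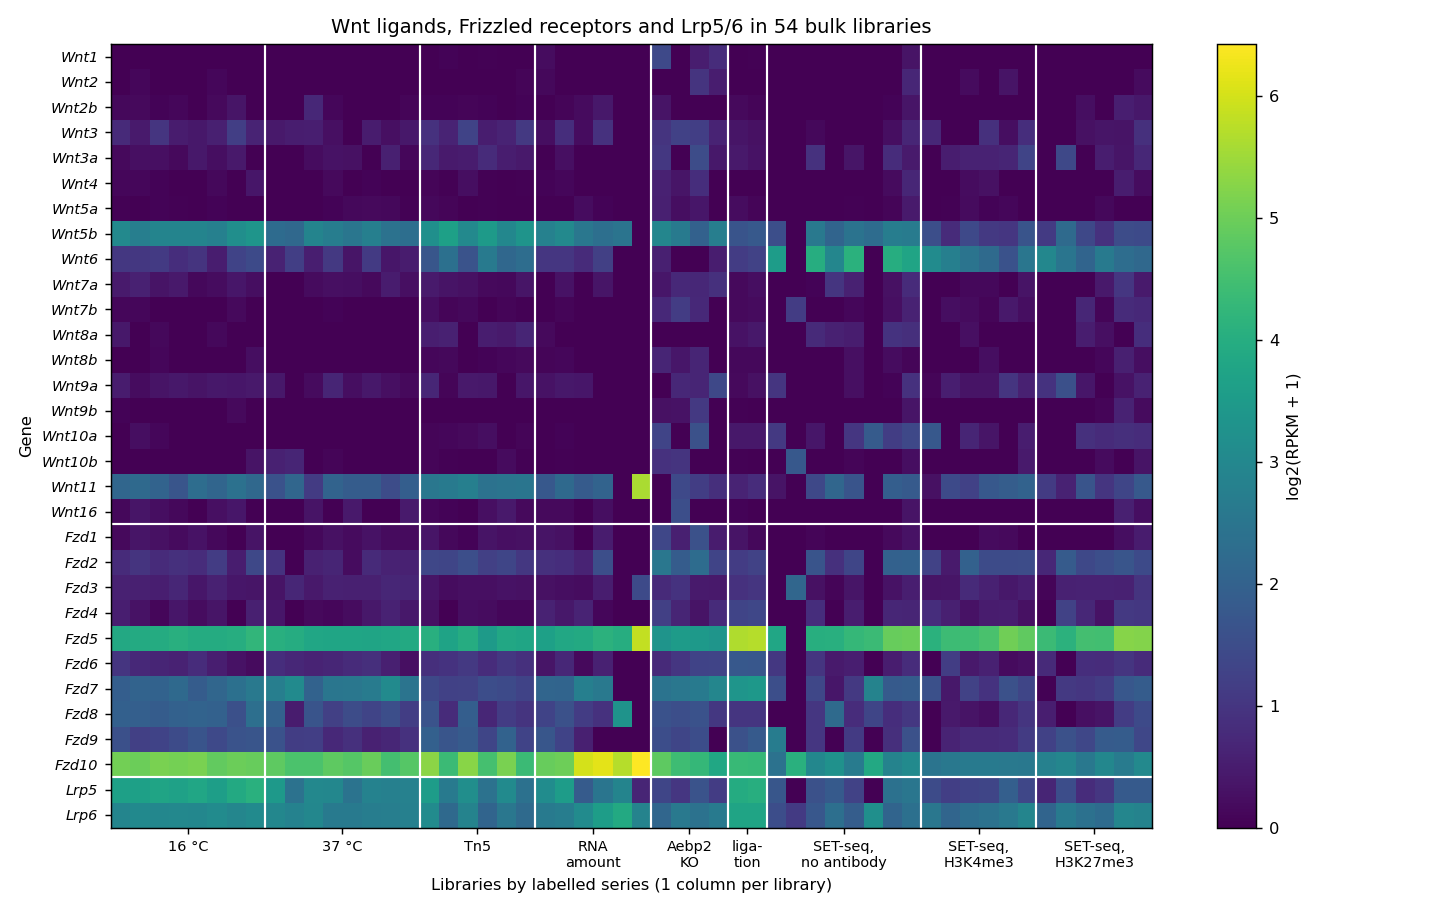
Level of the 31 genes (rows) in the 54 bulk libraries (columns, ordered by set), coloured by log2(RPKM + 1). Fzd5, Fzd10 and Lrp6 stand out in nearly every column, and the 17 genes expressed in no set stay near the bottom of the scale.

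Among ligands, Wnt5b (chr6:119382549-119494365, minus strand, mm9) was expressed in 7 sets, all but H3K27me3 SET-seq. Its RPKM ran from 6.82 to 11.5 with a median of 8.58 in the Tn5 series (n = 6) and from 3.50 to 6.39 at 37 °C (n = 8). It was 2.17 and 2.47 in the ligation libraries. In H3K27me3 SET-seq its lowest, median and highest RPKM were 0.875, 1.66 and 3.68 (n = 6), and in H3K4me3 SET-seq 0.728, 1.38 and 2.16 (n = 6). Wnt5b was therefore the main ligand of the purified RNA, at 38.3 to 65.3% of the summed Wnt RPKM in the 26 in vitro libraries of 3 ng RNA or more.

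Wnt6 (chr1:74818466-74831893, plus strand), a ligand known from epithelia, took that place in most SET-seq of WT cells. Its RPKM was 3.20 to 6.87 with a median of 4.27 with the H3K27me3 antibody (n = 6) and 2.09 to 7.57 with a median of 4.64 with the H3K4me3 antibody (n = 6). Without antibody it reached 16.2 with a median of 13.7 (n = 6), and the lowest library, the shallow replicate 2 of 1000 cells with 243741 counts, had none. By contrast it was 1.03 and 1.04 with 300 ng of RNA and 1.203 and 1.43 in the ligation libraries. Wnt11 ranged from 4.33 to 5.89 in the Tn5 series (n = 6) and from 0.519 to 2.45 with the H3K27me3 antibody (n = 6). Wnt10a was expressed only in SET-seq without antibody, with an RPKM of 0 to 2.61 over its 6 libraries of 100 to 10000 cells.

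Frizzled expression was carried by Fzd5 and Fzd10, in opposite order in different sets. Fzd10 (chr5:129106981-129109968, plus strand) was the most abundant of the family in purified RNA: 29.4 and 30.9 RPKM with 300 ng, 28.5 to 34.3 at 16 °C (n = 8) and 19.7 to 38.7 in the Tn5 series (n = 6). Fzd5 (chr1:64777132-64784324, minus strand) was lower there, at 10.3 to 17.7 with a median of 14.0 in the 26 in vitro libraries of 3 ng or more. In H3K27me3 SET-seq Fzd5 was at 16.4 to 37.05 with a median of 21.4 (n = 6), and Fzd10 at 4.98 to 7.13 with a median of 6.41.

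The ratio of Fzd10 to Fzd5 RPKM, which needs no scaling between libraries, separated the sets without overlap. It was 1.51 to 4.51 with a median of 2.13 in the 28 in vitro libraries and 1.43 to 3.09 in the 4 KO libraries. It was 0.146 to 0.686 in the 18 WT SET-seq libraries of 100 to 10000 cells and 0.370 and 0.391 in the ligation libraries. Libraries with a ratio above 1 were thus those with Hprt at 2.14 CPM or less. A library of 10 cells had no Fzd5 count and gave no ratio. The ligation libraries used random primers and the WT SET-seq libraries oligo-dT, and what set the ratio was not tested. The highest ratios came with 3 ng of RNA, where Fzd10 stood at 63.2 and 70.8 RPKM.

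**Figure D2:**
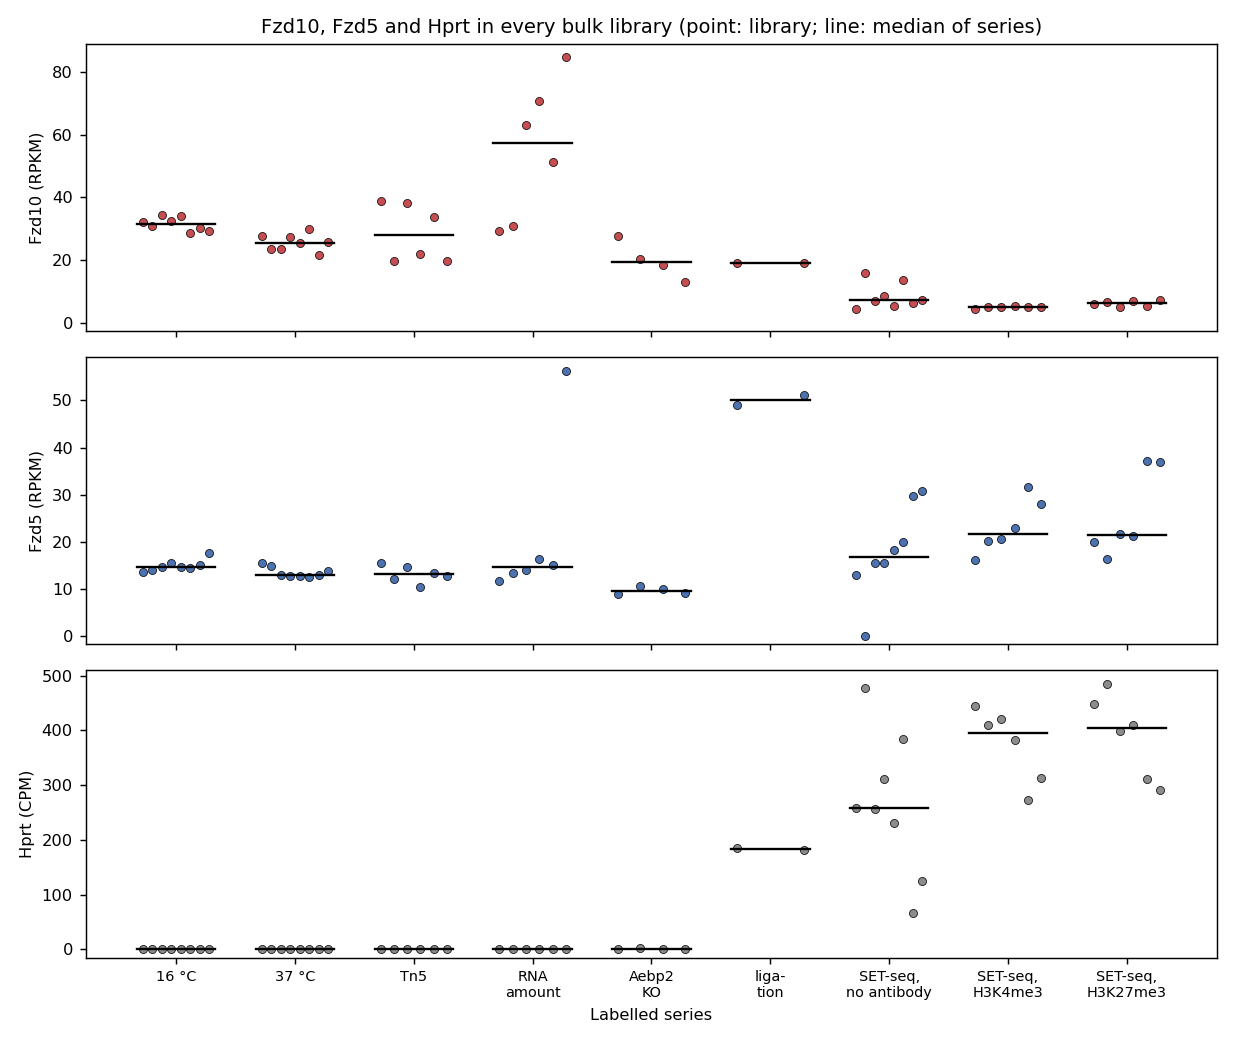
RPKM of Fzd10 (top) and Fzd5 (middle) and CPM of Hprt (bottom), 1 point per bulk library, by labelled series, with a line at the median of each series and all axes linear. Hprt lies near 0 in the in vitro and KO libraries, where Fzd10 exceeds Fzd5, and Fzd5 exceeds Fzd10 in the ligation libraries and in SET-seq of 100 to 10000 WT cells.

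Fzd5 also moved with cell number in WT SET-seq: it was at 28.1 to 37.05 RPKM in the 6 libraries of 10000 cells and at 15.4 to 22.8 in the 12 of 100 or 1000 cells. The other Frizzled genes were lower. Fzd7 (chr1:59538991-59543799, plus strand) was at 9.22 and 9.69 RPKM in the ligation libraries, at 2.63 to 5.04 at 16 °C (n = 8) and at 0.0352 to 2.68 with a median of 1.15 with the H3K27me3 antibody (n = 6). Fzd2 was expressed in 5 sets and Fzd9 in 3. Fzd4 and Fzd6 were expressed only in the ligation libraries, at 1.49 and 1.58 RPKM for Fzd4 and 2.35 and 2.41 for Fzd6, and Fzd8 only in KO.

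Both co-receptors were present. Lrp6 (chr6:134396496-134516931, minus strand) was expressed in every set, with 3.21 to 10.999 RPKM in vitro without the 30 pg libraries (n = 26), 2.35 to 8.19 in WT SET-seq (n = 18) and 12.4 in both ligation libraries. Lrp5 (chr19:3584825-3686564, minus strand) spanned a wider range, with 14.5 and 15.2 RPKM in the ligation libraries, 11.1 to 15.8 at 16 °C (n = 8), 4.36 to 10.2 at 37 °C (n = 8) and 0.589 to 2.55 with the H3K27me3 antibody (n = 6). Lrp5 made up 59.5 to 68.1% of the summed Lrp RPKM at 16 °C and 15.3 to 28.6% in H3K27me3 SET-seq.

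The remaining 17 genes, 15 ligands and the receptors Fzd1 and Fzd3, were expressed in no set, although each had a count in some library. Their highest RPKM in any library ran from 0.467 (Wnt5a) to 3.33 (Fzd3, in a library of 10 cells). Fzd3 was the best covered of them with 1411 counts over 51 libraries. Wnt1 had 16 counts in 8 libraries and Wnt2 19 in 10. Wnt7b shares exon sequence with the gene AU022754, so that its counts are uncertain.

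To show what the start regions of these genes look like, the 250 bases before the annotated start were taken from RefSeq (GRCm38.p6), where 21 of the 31 genes matched, with 24 promoters. The GC box GGGCGG, a site of Sp-family factors, was found on either strand in 18 of the 24, against 32.7% of 32851 promoters. CTTTGA, the core of the TCF/LEF motif, was in 3 of the 24 against 13.8% of all, and TATAAA in 2 of the 24 against 12.4%. The median promoter held 24 CpG, against 6 over all promoters. Fzd5 and Wnt6 are shown because both fell in KO against WT, and the capitals mark GC boxes on either strand: 9 at Fzd5 (chr1:64737751-64738000, minus strand) and 6 at Wnt6 (chr1:74771642-74771891, plus strand).
Fzd5: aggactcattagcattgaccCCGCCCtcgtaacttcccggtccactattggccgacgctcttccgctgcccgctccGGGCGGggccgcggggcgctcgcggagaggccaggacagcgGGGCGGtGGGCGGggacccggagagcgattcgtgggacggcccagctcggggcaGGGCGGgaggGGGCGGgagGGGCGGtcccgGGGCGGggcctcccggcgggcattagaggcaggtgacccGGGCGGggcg
Wnt6: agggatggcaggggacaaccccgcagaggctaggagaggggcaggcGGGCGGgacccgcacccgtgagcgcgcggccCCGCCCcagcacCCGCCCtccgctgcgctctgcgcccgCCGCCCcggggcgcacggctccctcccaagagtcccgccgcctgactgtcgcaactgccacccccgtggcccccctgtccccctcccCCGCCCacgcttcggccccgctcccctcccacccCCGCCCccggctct
The matches describe these letters only.

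The comparison of KO with WT asks how the ligands and receptors stood in the clones labelled Aebp2 KO, of which KO2 overlapped WT in Aebp2 mRNA. With edgeR, 11 members could be tested and 5 were called at an adjusted p below 0.05, 3 higher and 2 lower in KO, whereas 47% of all 10495 tested genes were called, 22.5% higher and 24.5% lower. The members' share was thus near that of all genes. In these bulk samples fewer cells that express a gene and less RNA per cell cannot be told apart. The median log2 fold change was 0.27 over the 11 members and -0.02 over all genes tested. The WT libraries enter this comparison, the one against SET-seq without antibody and the one against RNA, so those results share controls. Each test of KO against another set takes the libraries of KO1 and KO2 as independent and has no term for cell number. Its p-values therefore do not measure the spread between clones.

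Fzd10 was higher in KO. Its RPKM was 27.6 and 20.4 in KO1 and 18.3 and 13.1 in KO2, against 4.98 to 7.13 with a median of 6.41 in WT (n = 6). No KO library overlapped WT, and the log2 fold change was 1.71 (SE 0.21, edgeR adjusted p = 4.37e-06). Fzd7 was at 4.49 and 4.89 in KO1 and 5.17 and 6.66 in KO2, against 0.0352 to 2.68 in WT, again without overlap (log2 fold change 2.08, SE 0.56, edgeR adjusted p = 0.00495). With the ligation libraries as WT, the value for Fzd7 turned to -0.54 (edgeR adjusted p = 0.0485), and that of Fzd10 fell to 0.33 (edgeR adjusted p = 0.228).

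Wnt5b was the ligand that rose. It stood at 6.65 and 5.24 RPKM in KO1 and 3.00 and 5.70 in KO2, against 0.875 to 3.68 in WT, where 1 library of 100 cells overlapped KO. Its log2 fold change was 1.53 (SE 0.49, edgeR adjusted p = 0.0159). Wnt5b passed the filter only through KO, at 7.95 to 17.7 CPM against 2.32 to 9.76 in WT, so this p-value adds no support. Against SET-seq without antibody as WT, which held Wnt5b at 3.19 to 5.64 RPKM, the log2 fold change was 0.02 (edgeR adjusted p = 0.959). The call was also lost without replicate 1 of KO1 (log2 fold change 1.41) or replicate 2 of KO2 (1.42) and with either clone alone.

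Fzd5 and Wnt6 fell. Fzd5 was at 8.94 and 10.5 RPKM in KO1 and 9.92 and 9.14 in KO2, against 16.4 to 37.05 with a median of 21.4 in WT, so that every KO library lay below every WT library. The log2 fold change was -1.32 (SE 0.21, edgeR adjusted p = 5.84e-05) and was called under all 24 alternatives. Wnt6 had 1, 0, 0 and 1 counts in the 4 KO libraries, against 3.20 to 6.87 RPKM in WT. Pooled, this was 2 of 4084382 counts against 233 of 22990778, a WT level 20.7 times that of KO with an exact 95% interval of 5.67 to 171.9 that covers counting error only. The edgeR log2 fold change was -4.11 (SE 0.78, adjusted p = 0.000315). Wnt6 passed the filter only through WT, at 6.62 to 14.2 CPM against 0 to 0.981 in KO, so this p-value adds no support. Wnt6 was called under all 18 alternatives in which it was tested, whereas Fzd5 was tested in 24.

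The other 6 tested members were not called. Fzd8 stood at 2.05, 1.92, 2.08 and 1.06 RPKM in KO and 0 to 1.71 in WT (log2 fold change 1.65, SE 0.87, edgeR adjusted p = 0.129). Fzd2 was at 4.87, 2.65, 3.84 and 1.47 in KO and 0.653 to 2.60 in WT (0.89, SE 0.48, edgeR adjusted p = 0.139). Wnt11 was at 0, 1.68, 1.25 and 0.838 in KO and overlapped WT. The co-receptors gave values near 0: -0.03 (SE 0.23, edgeR adjusted p = 0.926) for Lrp6 and 0.03 (SE 0.53, edgeR adjusted p = 0.971) for Lrp5.

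Between the clones, 0 of 16 tested members were called by edgeR or by DESeq2, and 0 at an unadjusted p below 0.05, where 4.16% of all genes were called, 1.58% higher and 2.58% lower in KO1. The 476 genes behind that share became 37 without replicate 2 of KO1, 70 without its replicate 1, 67 without replicate 2 of KO2 and 1368 without replicate 1 of the 100-cell WT libraries, and 0 members were called in each. Fzd10 had a log2 fold change of 0.50 (SE 0.30, edgeR adjusted p = 0.456) for KO1 against KO2 and Fzd5 of -0.10.

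KO and in vitro libraries both had Hprt near 0, and KO was therefore also set beside the 300 ng libraries and beside 37 °C for 5 min, and WT beside 300 ng. In the KO contrasts genotype and cytoplasmic against total RNA cannot be told apart. In the WT contrast neither group is KO, but Hprt (291 to 485 CPM in WT, 0 and 0.195 with 300 ng) and the RNA fraction differ together and cannot be told apart. Against 300 ng, 4 of 7 tested members were called, where 61.2% of all genes were, 29.6% higher and 31.6% lower in KO. Against 37 °C for 5 min, 3 of 7 were called, where 37.8% of all genes were. For WT against 300 ng, a comparison added after the data were seen, 5 of 17 were called, where 44.8% of all genes were.

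Fzd10, higher in KO than in WT, was lower in KO than in 300 ng RNA by edgeR (log2 fold change -0.74, SE 0.23, adjusted p = 0.0105) and was not called against 37 °C (-0.36, SE 0.27, edgeR adjusted p = 0.315). WT lay further below 300 ng RNA, at -2.50 (SE 0.18, edgeR adjusted p = 7.04e-07). Fzd5 was lower in KO in each contrast: -0.51 (SE 0.21, edgeR adjusted p = 0.0392) against 300 ng and -0.63 (SE 0.22, edgeR adjusted p = 0.0302) against 37 °C. These calls were lost under 8 and 6 of 11 alternatives, with values of -0.65 to -0.43 and -0.68 to -0.58. In WT it was above 300 ng RNA at 0.77 (SE 0.27, edgeR adjusted p = 0.0335), a call lost without either 300 ng library or either WT library of 10000 cells.

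Lrp5, not called between KO and WT, was lower in both than in RNA. Its RPKM was 1.52, 1.03, 2.11 and 1.204 in KO and 0.589 to 2.55 in WT, but 7.65 and 10.7 with 300 ng and 4.36 and 10.2 at 37 °C for 5 min. The log2 fold change of KO was -2.77 (SE 0.32, edgeR adjusted p = 8.26e-07) against 300 ng and -2.28 (SE 0.44, edgeR adjusted p = 0.000699) against 37 °C. In these KO contrasts Lrp5 passed the filter only through the RNA libraries, where it was high. It was at 39.5 and 55.5 CPM with 300 ng and 52.7 and 22.5 at 37 °C for 5 min. In KO it was at 5.35 to 10.9 CPM, so the p-values of the KO contrasts add no support. The log2 fold change of WT against 300 ng was -2.86 (SE 0.42, edgeR adjusted p = 0.000144). Fzd2 was higher in KO than in both RNA sets, at 1.83 (SE 0.53, edgeR adjusted p = 0.00606) and 2.63 (SE 0.87, edgeR adjusted p = 0.0252). Its CPM was 5.34 to 17.7 in KO, but 3.12 and 2.84 with 300 ng and 3.30 and 0 at 37 °C for 5 min. Fzd2 passed the filter only through KO, where it was high, so these p-values add no support. Each of its calls was lost under 2 alternatives, and the value against 37 °C ran from 1.78 to 6.50. In WT, Wnt5b lay below 300 ng RNA (-2.06, SE 0.48, edgeR adjusted p = 0.00379) and Wnt6 above it (1.92, SE 0.54, edgeR adjusted p = 0.0114). Here Wnt6 passed the filter only through WT, at 6.62 to 14.2 CPM against 2.14 and 2.13 with 300 ng. The p-value of Wnt6 therefore adds no support.

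These counts rested on few libraries. Against 300 ng, 1 member was called without replicate 2 of the RNA, 2 without replicate 1 and 3 without replicate 1 or 2 of KO1 or replicate 1 of KO2. Against 37 °C, 1 was called without replicate 1 of KO1 or either RNA library, and 2 without replicate 1 of KO2. For WT against 300 ng, 3 were called without replicate 1 of the RNA, 2 without replicate 2 and 7 without replicate 1 of the 100-cell WT libraries.

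**Figure D3:**
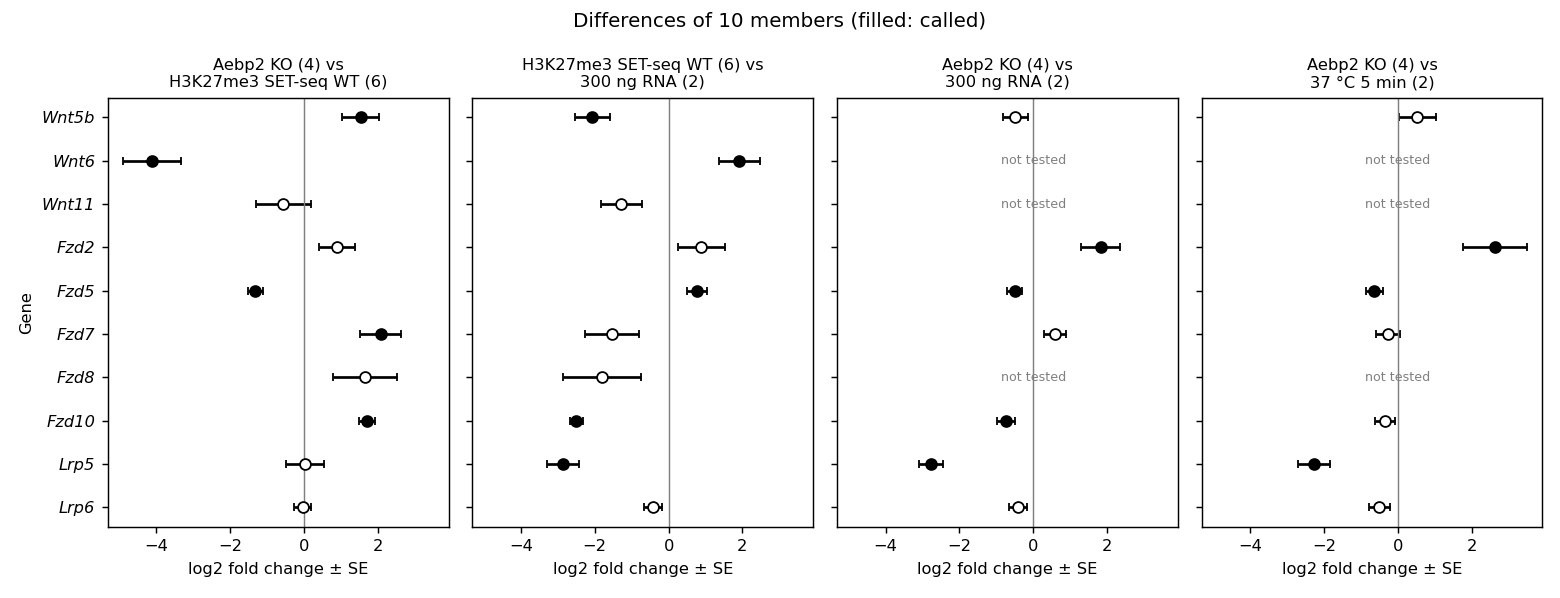
Log2 fold change (x axis) with bars of 1 SE for 10 members in KO against WT, WT against RNA 300 ng and KO against both RNA sets, 1 panel per comparison with the libraries per group in its title, filled points being called by edgeR. Fzd10 is at 1.71 in KO against WT and at -0.74 in KO against 300 ng, whereas Fzd5 lies below 0 in all the KO panels.

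The 17 members expressed in no set were higher in 3 of the 4 KO libraries than in any WT library. Their summed level was 40.2, 37.4, 44.7 and 19.6 CPM in the 4 KO libraries, from 22 to 45 counts each, against 3.89 to 30.0 with a median of 14.7 in WT (n = 6). Over the 13359 genes that were expressed in no set, the summed level was likewise 10657, 9783, 11318 and 3217 CPM in KO and 2968 to 8458 in WT. KO2 replicate 2 was the lowest KO library on both measures. The part of this background in the members' levels was not tested.

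Genes that act with these ligands and receptors were taken from 6 lists, and their counts stand beside 47% of all genes called in KO against WT, 22.5% higher and 24.5% lower. In this comparison 4 of 9 tested genes of noncanonical signalling and planar polarity rose, Prickle2 (log2 fold change 2.60), the pseudokinase Ptk7 (1.71), the Wnt5a receptor Ror2 (1.48) and Vangl2 (1.46), and 1 fell. Of 7 genes listed as antagonists and tested, Dkkl1 (-2.44) and Sfrp4 (-2.24) fell and 0 rose. For KO1 against KO2, Dkkl1 was at 6.23 (SE 1.93, edgeR adjusted p = 0.101) and Sfrp4 at 0.97 (SE 1.09, edgeR adjusted p = 0.744). Neither was called between the clones, but an equal fall of Dkkl1 in both clones is not shown. Porcn, the acyltransferase that lipid-modifies Wnt proteins, rose by 1.26 as 1 of 3 secretion genes tested, and Lgr4, an R-spondin receptor, by 1.53 as 1 of 2. Of 11 cytoplasmic transducers, 4 rose, among them Apc (2.15), Amer1 (1.45) and Csnk1e (1.19), and 2 fell, Gsk3a (-1.02) among them. The heparan sulfate proteoglycan Gpc1 fell (-1.26), 1 of 7 tested co-receptors. List medians were 1.18 for noncanonical signalling, -0.20 for antagonists and 0.37 for transducers, against -0.02 over all genes.

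Against 300 ng RNA, where 61.2% of all genes were called, 29.6% higher and 31.6% lower, some of these turned. Of 10 noncanonical genes tested, 2 were higher in KO, Ror1 (5.17) and Prickle2 (2.31), and 6 were lower, among them Ror2 (-2.30) and, named here because they had risen against WT, Ptk7 (-1.18) and Vangl2 (-0.66). Porcn (1.23) and Lgr4 (1.69) were higher in this contrast as well, and Gpc1 was higher (1.04). The antagonists Dkk3 (-4.00), Sfrp1 and Sfrp2 were lower, 3 of 3 tested.

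The antibody comparisons hold the genotype and RNA fraction fixed, but antibody and library set differ together and cannot be told apart. In the study's protocol the cytoplasmic RNA was taken off before the nuclei received antibody. SET-seq without antibody had 2 of 17 tested members called against H3K27me3 SET-seq, where 27.9% of all genes were called, and both were ligands. Wnt6 was higher by 1.56 (SE 0.36, edgeR adjusted p = 0.00386) and Wnt5b by 1.48 (SE 0.39, edgeR adjusted p = 0.00911), each called in all 17 alternatives. Lrp5 was not called (0.85, edgeR adjusted p = 0.0816). Between H3K4me3 and H3K27me3 SET-seq, 0% of genes and 0 of 15 members were called by edgeR or DESeq2, and at an unadjusted p below 0.05 there were 361 genes, of which Fzd9 was the only member (-1.75, SE 0.73).

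Between in vitro sets, Fzd7 was called in both comparisons. It was at 5.71 and 7.44 RPKM at 37 °C for 5 min, at 3.24 and 3.28 with 300 ng and at 1.35 to 1.87 in the Tn5 series (n = 6), with no overlap between the 3 sets. For 300 ng against 37 °C, where 19.6% of genes were called, 4.55% higher and 15% lower with 300 ng, Fzd7 was the 1 member of 9 called (-0.99, SE 0.30, edgeR adjusted p = 0.0235), a call lost without replicate 2 of either set. For the Tn5 series against 37 °C, where 28.7% were called, it was lower by edgeR at -2.005 (SE 0.24, adjusted p = 0.000429). Wnt5b (1.36, SE 0.38, edgeR adjusted p = 0.0215) and Wnt11 (0.93, SE 0.29, edgeR adjusted p = 0.0354) were higher, among 15 tested. The call of Wnt11 was lost under 8 of 13 alternatives (0.64 to 1.31). Without replicate 2 of 37 °C 1 member was called, and 2 were called without replicate 1 of 37 °C, replicate 2 of 25 or 100 ng/µl or either replicate of 50 ng/µl. Within the Tn5 series the libraries numbered 1 and 2 stood apart: Fzd10 was at 33.8 to 38.7 RPKM in the former and 19.7 to 22.0 in the latter, and Wnt5b at 6.82 to 8.12 and 9.03 to 11.5. The test takes these 6 libraries as independent, and what set the numbers apart was not tested.

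**Figure D4:**
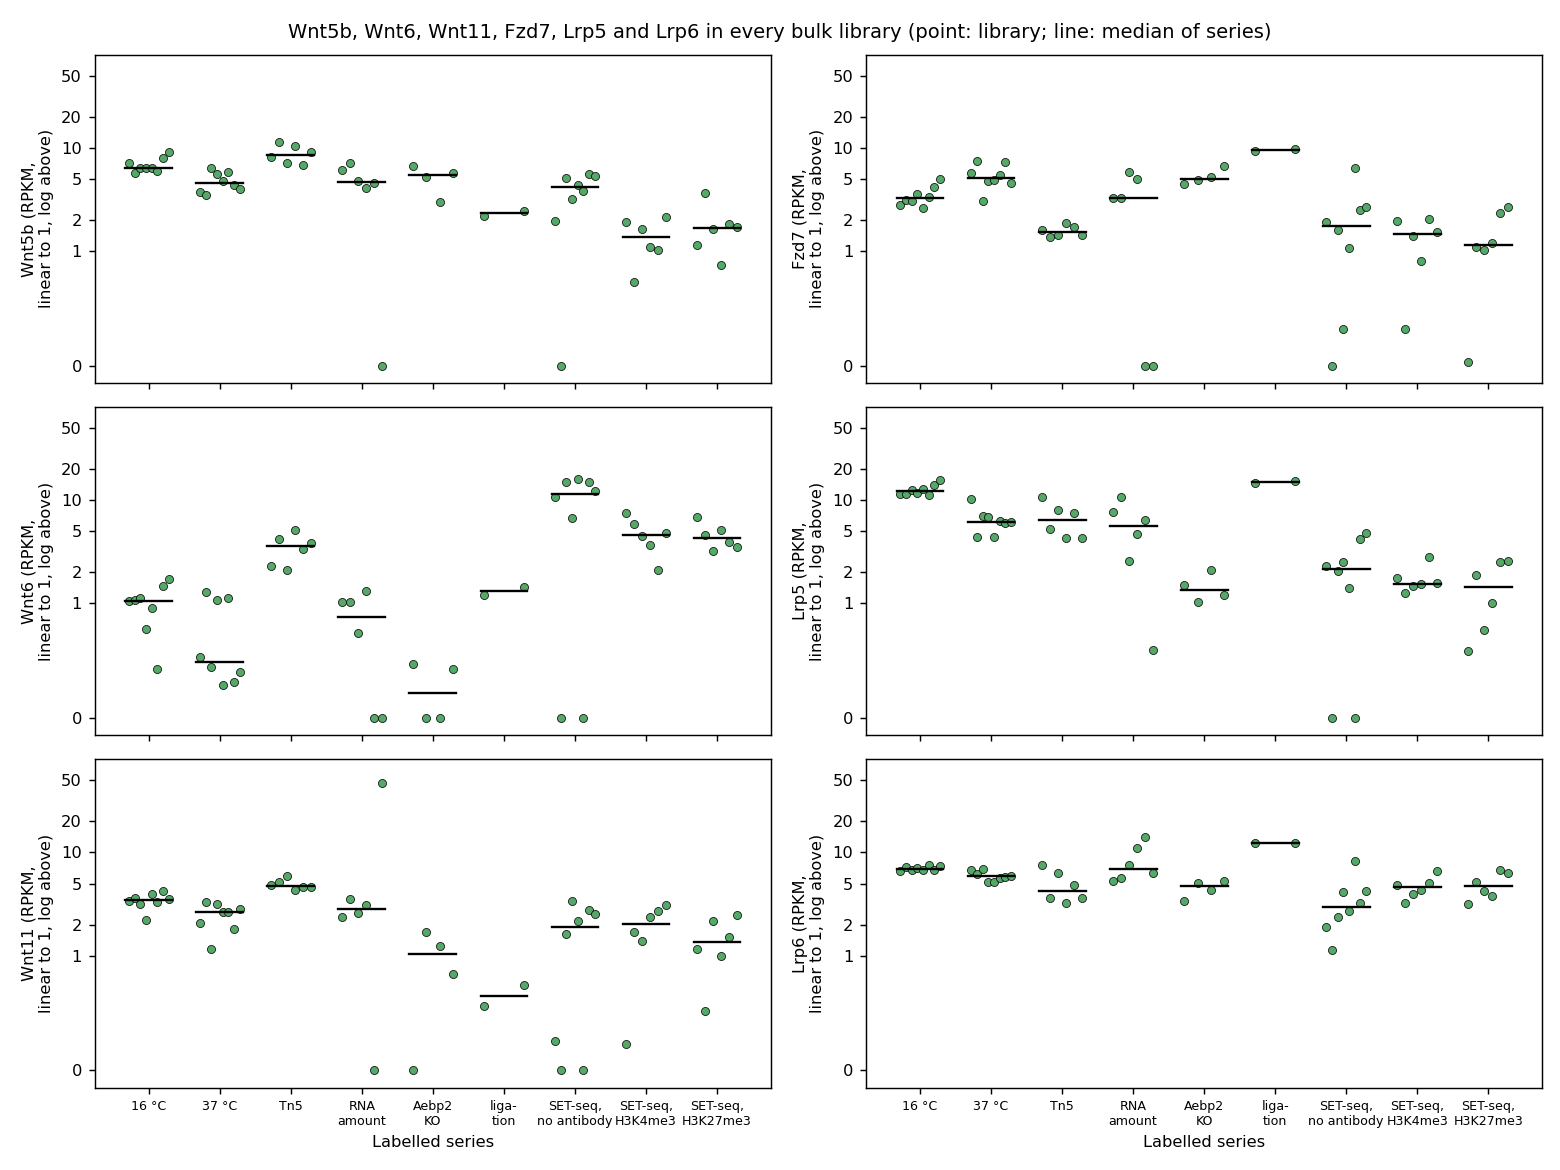
RPKM of Wnt5b, Wnt6, Wnt11, Fzd7, Lrp5 and Lrp6, 1 panel per gene, 1 point per library and a line at the median of each labelled series, on an axis that is linear up to 1 and logarithmic above. Wnt6 is at or near 0 in KO and highest in SET-seq without antibody, and Fzd7 is lower in the Tn5 series than in the 37 °C libraries.

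In single cells, 545 of 752 passed the limits of more than 1000 and fewer than 5000 genes, 335 from 10 H3K27me3 experiments and 210 from 6 H3K4me3 experiments. Reads here were counted over exons and introns without molecular identifiers, with a median total of 199766 in H3K27me3 and 104474.5 in H3K4me3 cells. The matrices share barcodes, 80 of 96 well barcodes being used in more than 1 experiment. Reads of 27 members were found. Wnt1, Wnt8b, Wnt9b and Fzd8 have no row in either table and were not analysed here. The median cell had reads of 1 member (range 0 to 8), and 147 of the 545 cells had none.

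The order of detection differed between the matrices, which also differ in depth. In H3K27me3 cells Wnt5b was found in 50.7%, Lrp5 in 27.2%, Fzd3 in 19.7%, Wnt7b in 17.01%, Lrp6 in 12.5%, Fzd5 in 9.55% and Wnt2 in 8.36%. In H3K4me3 cells Lrp6 was found in 32.4%, Wnt2 in 21.9%, Fzd5 in 19.05%, Wnt5b in 14.8% and Lrp5 in 9.52%. After thinning to 20000 reads, which kept 500 cells of both matrices, Wnt5b was in 13.0%, Lrp6 in 8.20%, Fzd5 in 5.80%, Lrp5 in 4.80%, Wnt2 in 4.20%, Wnt7b in 2.20% and Fzd3 in 1.60%. In the 291 H3K27me3 and 209 H3K4me3 cells kept, Wnt5b was in 18.2% and 5.74%, Lrp6 in 1.72% and 17.2% and Lrp5 in 7.90% and 0.4785%. In the same order, Fzd5 was in 4.12% and 8.13%, Wnt2 in 0.687% and 9.09%, Wnt7b in 3.09% and 0.957% and Fzd3 in 1.37% and 1.91%. The shares describe these cells, and cells of 1 experiment are not independent. Fzd10, abundant in some bulk libraries, was found in 6 cells, all of 1 H3K4me3 experiment, and has no row in the H3K27me3 table. Hprt was found in 19.7% of H3K27me3 and 46.7% of H3K4me3 cells.

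Detection varied between experiments. Wnt5b had reads in 45 of 45 cells of H3K27me3 experiment 6 and in 1 of 15 cells of experiment 4. All 46 H3K4me3 cells with Wnt2 reads were among the 57 cells of experiment 3, whereas bulk libraries had 19 Wnt2 counts in all. Fzd3 was in 31 of 62 cells of H3K27me3 experiment 8 and in none of 42 in experiment 5. Lrp6 was in 34 of 47 cells of H3K4me3 experiment 4 and in 5 of 46 of experiment 5. Depth differed between experiments too. The summed proximal and distal totals were 10849041 and 11858973 reads in H3K27me3 experiment 6, but 54144 and 116961 in experiment 4. They were 15434438 and 12160702 in experiment 8, but 307786 and 452882 in experiment 5. In H3K4me3 experiments 4 and 5 the totals were closer, 1756883 and 1215899 against 2219260 and 2060181. What set these shares was not tested. Single cells also carried large parts of some sums: 80.28% of Wnt6 reads and 79.7% of Fzd2 reads lay in 1 cell each.

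**Figure D5:**
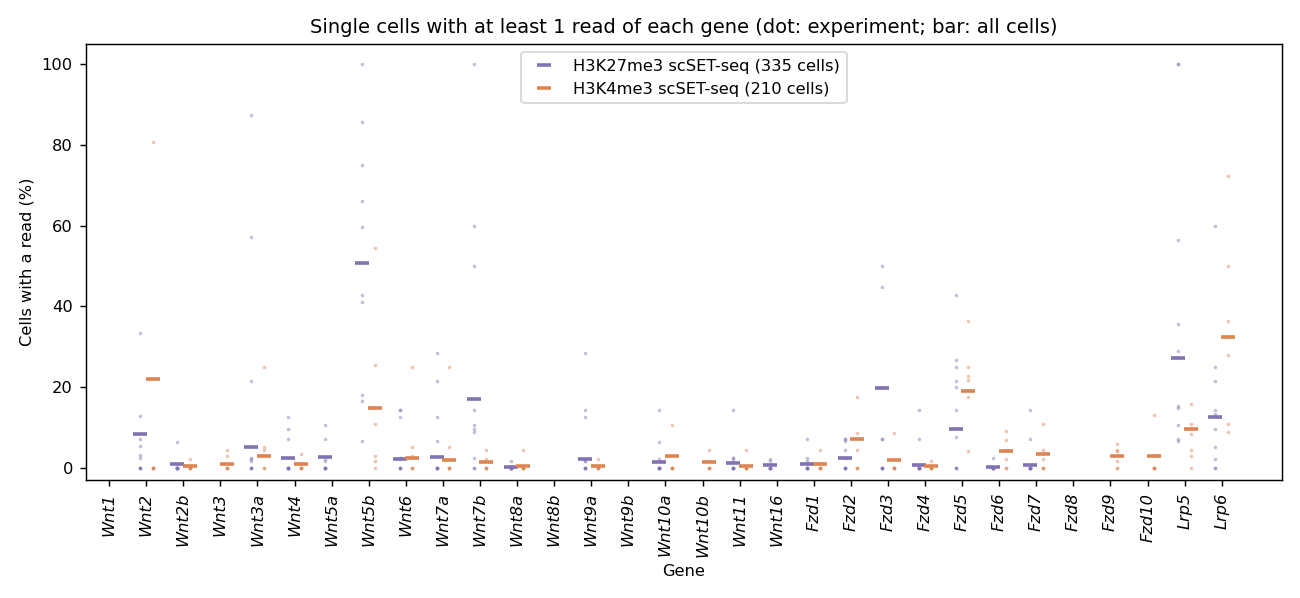
Share of passing cells with at least 1 read of each member, in percent, in H3K27me3 and H3K4me3 cells, with a dot per experiment and a bar for all cells of the matrix, and nothing where the table has no row. The dots of Wnt5b in H3K27me3 cells run from 6.67 to 100%, around 50.7% for all cells.

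Cells near to and away from the Wnt3a beads were compared over sums of counts per experiment and position, 28 sums from 14 experiments with the experiment as a block. No gene was called (0% of 13086), nor any of the 13 tested members, with 0 members and 1194 genes at an unadjusted p below 0.05 by edgeR and 0 members called by limma. Without a filter 24 genes were called, without the block 55 and with all cells 8, and 0 members in each, where with all cells 2 members passed an unadjusted p below 0.05. Wnt5b differed by 0.29 on the log2 scale (SE 0.67), Fzd5 by 0.23 (SE 0.84) and Lrp6 by -0.77 (SE 0.94). The SEs allow large differences of either sign. The test of whether the difference varied with the antibody also called 0% of genes and 0 members, with Fzd6 the only member at an unadjusted p below 0.05 among 790 genes by edgeR. On test data with known changes this second test called none, so that its 0 carries no information, and the first found few of the smaller changes.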

How the data were processed

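Gene counts were deposited by the authors as raw counts per gene over exons (STAR 2.5.4b, featureCounts 2.0.0, mm9, Trim Galore 0.6.4, per the labels; the KO file headers name a later featureCounts release). The single-cell matrices, also deposited counts, hold exon and intron reads per cell without molecular identifiers, and the position of each cell came from the study's cell table. Rn45s was left out of totals and tests. RPKM and CPM were computed from the counts and the files' exon lengths. Comparisons used the edgeR 4.0.16 quasi-likelihood test (TMM, filterByExpr, R 4.3.3) on whole tables, with Benjamini-Hochberg adjustment over all tested genes and a threshold of 0.05, and the SE was the log2 fold change divided by the root of F. DESeq2 1.42.0 and limma 3.58.1 served as alternatives, as did no filter, other scalings, other WT libraries, left-out libraries and a replicate block. Figures and sums were made with Python 3.11.15.

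The test code was tested on simulated data. The study calls the libraries of a KO line independent experiments and those of the temperature series biologically independent. For the other sets no such statement was found, and there p-values measure the spread between libraries, which may be technical. Intervals cover counting error only. Replicate pairs differed by more than sampling noise in every condition, and none was merged. Values were printed for members expressed in any set or called in any comparison, the others by counts and ranges, and other genes only from 6 lists, at most 4 per list and comparison chosen by size of change, with any other said to be so. The members and lists were chosen with earlier results of these data known.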

Additional observations from a re-analysis of the deposited data

Results flagged for a closer look

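In groups of 4 to 10 libraries, 10 of 97 gaps tested stood beyond Dixon's 95% limit, where chance gives about 1 in 20. In KO, Fzd8 was lowest in KO2 replicate 2 at 1.06 RPKM, below the next at 1.92. In H3K27me3 SET-seq, replicate 2 of 100 cells was highest for Wnt5b at 3.68 RPKM (next 1.83) and lowest for Fzd6 at 0 (next 0.695). In H3K4me3 SET-seq, Wnt10a was highest at 2.39 RPKM in replicate 1 of 100 cells (next 0.596) and Lrp5 at 2.82 in replicate 1 of 10000 cells (next 1.77). In SET-seq without antibody, Fzd8 was highest at 3.68 RPKM in replicate 2 of 100 cells (next 1.53) and Lrp6 at 8.19 in the shallow replicate 2 of 1000 cells (next 4.20). At 16 °C, Wnt10a reached 0.188 RPKM in replicate 2 of 5 min (next 0.0739) and Fzd5 17.7 in replicate 2 of 30 min (next 15.5). At 37 °C, Lrp5 was highest at 10.2 RPKM in replicate 1 of 5 min (next 7.01).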

How the results depend on the processing

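Over 23 pairs of a called member and a comparison, 335 values were computed under alternatives: 286 kept direction and call, 48 lost the call and 1 reversed, Fzd7 in KO against the ligation libraries (-0.54). Called members in KO against WT numbered 3 with 1000- and 10000-cell WT libraries and 3 with KO1 alone, against 5. For RNA 300 ng against 37 °C they were 0 under DESeq2, 0 with a replicate block and 2 with a crossed block chosen after seeing the data, against 1, and genes called were 1317, 1354 and 3914 against 2063 (479 higher and 1584 lower; without a filter 1053 and 1358). For KO against 300 ng they were 10 without a filter and 7 under DESeq2, and for KO against 37 °C 1 under DESeq2. KO against WT called 2910 genes by an unadjusted p and a 2-fold limit, against 4934.

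Leaving out 1 library gave 4 to 5 called members for KO against WT, 0 to 0 for KO1 against KO2 and for H3K4me3 against H3K27me3, 2 to 3 without antibody, 0 to 1 for 300 ng against 37 °C, 1 to 4 for the Tn5 series, 1 to 4 and 1 to 3 for KO against 300 ng and 37 °C, and 2 to 7 for WT against 300 ng. Expressed members changed with the rule: in the RNA amount series 3 with Rn45s kept in totals and 11 at a CPM of 1, in H3K4me3 SET-seq 4 at an RPKM of 2 and 5 with Rn45s kept, in H3K27me3 SET-seq 13 at 0.5, 4 at 2 and 13 at a CPM of 1, and in KO 5 at 2 and 5 with Rn45s kept. Without the shallow replicate of 1000 cells, SET-seq without antibody held 10 (6 to 10 over its left-out libraries), and the other sets ranged from 7 to 11 when 1 library was left out. Replicate numbers were not taken as pairs between groups (correlations of -0.10 to 0.0854, and -0.2092 for 300 ng with 37 °C), although those of the Tn5 series stood apart within it, and the block gave 5 members for KO against WT, 3 for KO against 300 ng, 2 for KO against 37 °C and 4 for the Tn5 series. Where not stated, the cause was not tested. Wnt6 in KO rests on 2 counts, and the members expressed in no set on 22 to 45 counts per KO library.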
